A study of Mus musculus with 6 samples.

Results

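The genes described here were 10 cytosolic heat shock chaperones and their regulator: Hsf1, Hspa1a, Hspa1b, Hspa8, Hsph1, Hsp90aa1, Hsp90ab1, Dnajb1, Hspb1 and Bag3. They were chosen by name and found through their gene identifiers, and were 10 of the 54446 genes in the count table. Expression was measured by poly(A) RNA-seq in TRAMP-C2 cells, a prostate cancer line from a male C57BL/6 mouse, and the results hold for this cell line alone. Cells received no drug (control, Ctrl), oxaliplatin (Oxali) or cisplatin (Cispl), each drug at 2 µM for 24 h, with 2 libraries in each of the 3 groups. Nothing in the labels or methods used here says that replicate libraries came from separate cultures, so that the p-values measure the spread between these libraries, which may be technical. Both drugs are platinum compounds that form adducts with DNA. Cisplatin carries ammine and chloride ligands, whereas oxaliplatin carries a diaminocyclohexane and an oxalate ligand.

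Heat shock proteins keep other proteins folded. HSF1 is the transcription factor that drives their genes when unfolded protein accumulates, and it is controlled largely after translation, being held inactive by chaperones and released, trimerised and phosphorylated under stress. Its trimers bind heat shock elements, which are alternating GAA and TTC units in the promoters of target genes. Hsp70 proteins bind unfolded clients in a cycle of ATP hydrolysis, started by J-domain proteins such as DNAJB1 and ended by nucleotide exchange factors such as HSPH1 and BAG3. Hsp90 proteins take over clients that are nearly folded, many of them kinases and steroid receptors, and small heat shock proteins such as HSPB1 hold aggregating proteins without ATP. Tumour cells often carry high levels of these chaperones.

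The promoters are shown to describe where units of the elements that HSF1 binds lie in them. A relation of these units to the drug responses was not tested. RefSeq promoter windows on GRCm38.p6, running from 250 bases before to 50 bases after each start, matched 6 of the 10 members (Hspa1a, Hspa1b, Hsph1, Dnajb1, Hspb1 and Bag3). Hsf1, Hspa8, Hsp90aa1 and Hsp90ab1 were not matched. The 150 bases before the start are printed for 4 members. They lie at chr17:34972157-34972306 on the minus strand for Hspa1a, chr17:34959239-34959388 on the minus strand for Hspa1b, chr5:135887769-135887918 on the plus strand for Hspb1 and chr7:128523433-128523582 on the plus strand for Bag3. Capitals mark a pair of adjoining heat shock units, GAANNTTC or TTCNNGAA.
Hspa1a: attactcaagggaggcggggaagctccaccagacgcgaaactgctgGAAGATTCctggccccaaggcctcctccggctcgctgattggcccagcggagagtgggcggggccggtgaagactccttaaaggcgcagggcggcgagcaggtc
Hspa1b: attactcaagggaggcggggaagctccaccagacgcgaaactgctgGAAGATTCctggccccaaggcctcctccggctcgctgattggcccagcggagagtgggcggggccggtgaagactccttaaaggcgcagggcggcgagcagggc
Hspb1: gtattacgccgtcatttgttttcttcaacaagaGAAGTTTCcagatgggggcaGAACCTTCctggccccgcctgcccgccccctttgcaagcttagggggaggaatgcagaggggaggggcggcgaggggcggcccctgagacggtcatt
Bag3: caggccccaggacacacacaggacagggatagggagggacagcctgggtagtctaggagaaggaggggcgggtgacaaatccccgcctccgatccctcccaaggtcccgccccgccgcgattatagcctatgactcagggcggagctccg

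The printed windows of Hspa1a and Hspa1b had 149 of 150 bases in common. Each held 1 pair of units, the first base of which lay at -104 from the start. Hspb1 held 2 pairs, at -117 and -97, and the window of Bag3 held none before the start and 1 at +43. A full element of 3 units (GAANNTTCNNGAA or TTCNNGAANNTTC, on either strand, which contains the shorter pairs) was found in 1 of the 6 matched members. It lay in Hsph1, read TTCTGGAAAGTTC, and began at +37 or +16 from the RefSeq starts. Such elements were in 198 of the 32851 promoter windows of the genome (0.603%), and in 179 of the 27025 genes with such windows (0.662%). Members were counted by gene, a match in any window sufficing, whereas the shares given below for pairs are per window. The pairs of units, searched for after the result of the full element was seen, were in 5 of the 6 members (not in Dnajb1) and in 15.1% of all windows. In the 150 bases before the start they were in 4 of the 6 members (Hspa1a, Hspa1b, Hsph1 and Hspb1) and in 7.73% of all windows. Only exact units were searched for, so that imperfect elements were not counted. These matches describe the sequence and are not shown to be bound.

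The 6 libraries held 21345312 to 24041767 expected counts in total, with 3 counts worth 0.125 to 0.141 CPM (counts in relation to all counts of the library), a limit that covers counting error only. Normalised counts are counts divided by the library's size factor. The TRAMP-C2 cells expressed the epithelial gene Krt19 (1932 to 2578 normalised counts). The prostate marker Pbsn was at 0 in every library, and the epithelial marker Epcam reached at most 2.0. The collagen genes Col1a1 and Col1a2 gave most of a 4-gene fibroblast list, with a summed level of 228195 to 243613 in Ctrl, 186414 to 187257 in Oxali and 174146 to 177545 in Cispl libraries. The other fibroblast genes did not follow the collagens: Pdgfra had 1058 and 1106 normalised counts in Ctrl, 1451 and 1538 in Oxali and 1161 and 1141 in Cispl libraries, and Dcn had 3493 and 3676, 3299 and 3563, and 4079 and 3708. The 5-gene epithelial list summed to 2593 to 2855, 2716 to 2807 and 3342 to 3430. The 4 immune markers summed to at most 2.94. The 3 endothelial markers summed to 22.7 to 27.0 in Ctrl, 51.2 to 61.3 in Oxali and 53.2 to 71.6 in Cispl libraries. Most of this sum was Kdr alone, with 24.9 and 20.7 in Ctrl, 55.7 and 49.1 in Oxali and 62.7 and 50.1 in Cispl libraries. Pecam1 reached at most 7.84 and Cdh5 at most 1.02. The part of these shifts in the results below was not tested, and in bulk RNA fewer cells of a type and less RNA per cell cannot be told apart.

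After Oxali, 3 members were higher and 2 lower than in Ctrl (DESeq2, adjusted p under 0.05). Hsf1, Hsp90aa1 and Hsph1 were higher, by 51.8%, 25.3% and 18.6%, and Bag3 and Hspa8 were lower, by 23.9% and 13.8%. After Cispl, 7 members were higher and 1 lower: Hsp90aa1, Hspb1, Hspa1b, Hsf1, Hsph1, Bag3 and Dnajb1 rose, by up to 42.8%, and Hspa8 was 8.21% lower. The whole transcriptome gives the scale for these counts. Of the 14956 genes tested, 20.2% were called after Oxali (10.7% higher and 9.50% lower) and 28.1% after Cispl (15.7% higher and 12.4% lower). With libraries scaled to their total counts, 9.87% of all genes were higher and 10.5% lower after Oxali. The members then called were 5, with 3 higher and 2 lower. After Cispl with this scaling, 12.2% of all genes were higher and 15.9% lower, and 5 members were called, 4 higher and 1 lower. The members' median log2 fold change was 0.06 after Oxali and 0.23 after Cispl, against -0.003 and -0.0008 over all genes. Libraries of the drug and Ctrl groups did not overlap for 7 of 10 members after Oxali (64.8% of all genes) and 9 of 10 after Cispl (69.4%). Both contrasts used the same Ctrl libraries. The number of called members was 4 to 5 after Oxali and 3 to 7 after Cispl when each library was left out in turn, a fit that assumes the lone library of a group to vary like the others. It was 3 without Cispl replicate 1 and 3 without Cispl replicate 2, and 5 without Ctrl replicate 2, Oxali replicate 1 or Oxali replicate 2. The median after Oxali was -0.02 without Ctrl replicate 2 and 0.19 without Ctrl replicate 1, and the median after Cispl was 0.36 without Ctrl replicate 1.

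**Figure D1:**
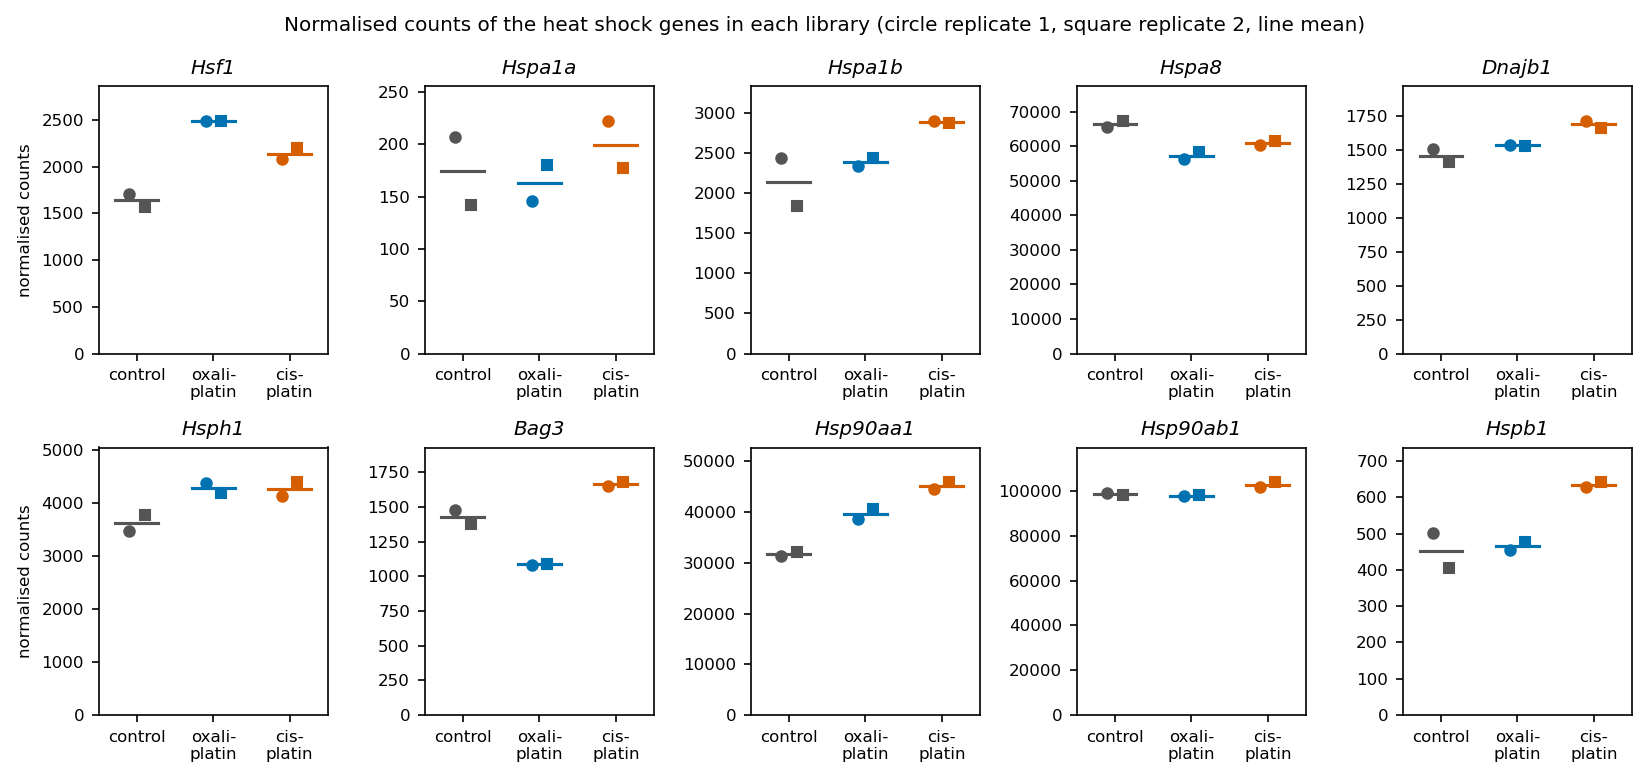
Normalised counts (vertical axis, from 0, a scale for each gene) of the 10 genes by library for the 3 groups of cells, with replicate 1 as circles, replicate 2 as squares and the group mean as a line. Bag3 was at 1081 and 1089.9 after oxaliplatin, below the control libraries at 1475 and 1377, and at 1653 and 1676 after cisplatin, above them.

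Hsf1 (ENSMUSG00000022556, chr15:76477422-76501913, plus strand), the heat shock transcription factor itself, had the largest rise of the members after Oxali in percent. Its normalised counts were 1711 and 1571 in Ctrl, 2492 and 2489.9 in Oxali and 2078 and 2198 in Cispl libraries. All 4 drug libraries lay above both Ctrl libraries, and the Oxali libraries lay above the Cispl libraries. Its log2 fold change came to 0.60 ± 0.07 (SE; DESeq2 adjusted p = 2.69e-15) after Oxali and 0.38 ± 0.07 (adjusted p = 1.54e-06) after Cispl, and both calls held under each of the 16 alternatives. Set directly against Cispl, Oxali gave a level 16.5% higher, a log2 difference of 0.22 with a 95% interval of 0.08 to 0.36 (DESeq2 adjusted p = 0.0100). This last call held in 10 of 16 and was lost, among others, when Oxali replicate 1 or 2 or Cispl replicate 1 or 2 was left out (DESeq2 adjusted p = 0.188, 0.164, 0.277 and 0.0647). The HSF1 transcript is no measure of the activity of the protein, which was not recorded.

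Hspa1b and Hspa1a encode the inducible Hsp70, the classical target of HSF1, from neighbouring intronless genes on chromosome 17. Hspa1b (ENSMUSG00000090877, chr17:34956436-34959238, minus strand) had 2447 and 1836 normalised counts in Ctrl, 2346 and 2447 in Oxali and 2905 and 2876 in Cispl libraries. The Ctrl libraries were far apart, the Oxali libraries fell within their range or at its upper end, and the Cispl libraries lay above them. After Cispl its log2 fold change reached 0.43 ± 0.17 (DESeq2 adjusted p = 0.0334), a level 35.0% higher. The call was lost without Oxali replicate 1 or 2 or Cispl replicate 1 or 2 (DESeq2 adjusted p = 0.105, 0.104, 0.246 and 0.232), with only the 4 libraries compared (0.0984) and with total-count scaling (0.0609). After Oxali the log2 fold change was 0.16 with a 95% interval of -0.17 to 0.49 (DESeq2 adjusted p = 0.548). Without Ctrl replicate 1 this comparison passed the threshold (DESeq2 adjusted p = 1.29e-04), so that 1 Ctrl library decided it.

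Hspa1a (ENSMUSG00000091971, chr17:34969190-34972156, minus strand) was read far less than its neighbour. It had 208 and 142 normalised counts in Ctrl, 146 and 180.1 in Oxali and 223 and 177 in Cispl libraries, and the 3 groups overlapped. Log2 fold changes of -0.10 after Oxali (95% interval -0.61 to 0.41; DESeq2 adjusted p = 0.840) and 0.20 after Cispl (-0.31 to 0.70; adjusted p = 0.620) did not pass the test, and smaller changes within these intervals were not detectable. The genes share most of their sequence: 60.3% of the 50-base stretches of the Hspa1a transcripts also occur in another gene, 58.8% in Hspa1b, so that reads were divided between them by estimation. Hspa1a also overlaps Gm20481 on the other strand (10.4 to 43.0 normalised counts), and the strand setting of the counting is not given in the sources used here. Summed before the fit, the pair had a log2 fold change of 0.14 ± 0.17 after Oxali (DESeq2 adjusted p = 0.618) and 0.42 ± 0.17 after Cispl (adjusted p = 0.0507), just outside the threshold. Hspa1a took 5.80% to 7.82% of the summed counts, and the promoters of the pair are nearly the same in the bases printed above.

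Hspa8 (ENSMUSG00000015656, chr9:40800984-40810087, plus strand) encodes Hsc70, the Hsp70 that cells make without stress. It had 65439.5 and 67305 normalised counts in Ctrl, 56245 and 58179 in Oxali and 60379.8 and 61469 in Cispl libraries. The groups did not overlap, with Ctrl highest and Oxali lowest. After Oxali its log2 fold change stood at -0.21 ± 0.03 (DESeq2 adjusted p = 5.08e-10), which held under all 16 alternatives, and after Cispl at -0.12 ± 0.03 (adjusted p = 6.58e-04), which was lost without Cispl replicate 1 (0.0629). The level after Oxali was 6.10% below that after Cispl (DESeq2 adjusted p = 0.0213), but not past the threshold in edgeR (adjusted p = 0.109) or with total-count scaling (DESeq2 adjusted p = 0.196). Leaving out Oxali replicate 1 or 2 or Cispl replicate 1 or 2 also ended this call (DESeq2 adjusted p = 0.430, 0.0822, 0.103 and 0.256). The Hspa8 transcripts share 38.6% of their 50-base stretches with other genes, mainly with Gm15459 (1990.5 to 2770.5 normalised counts).

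After Cispl, then, Hspa1b was called higher and Hspa8 lower, within the limits given for each. The summed Hspa1a and Hspa1b counts were 4.06% and 2.94% of the Hspa8 counts in Ctrl, 4.43% and 4.52% in Oxali and 5.18% and 4.97% in Cispl libraries. Every drug library was above both Ctrl libraries. With 2 libraries a group, a two-sided exact permutation test of such a ratio cannot give a p below 0.333, so no test is given.

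**Figure D2:**
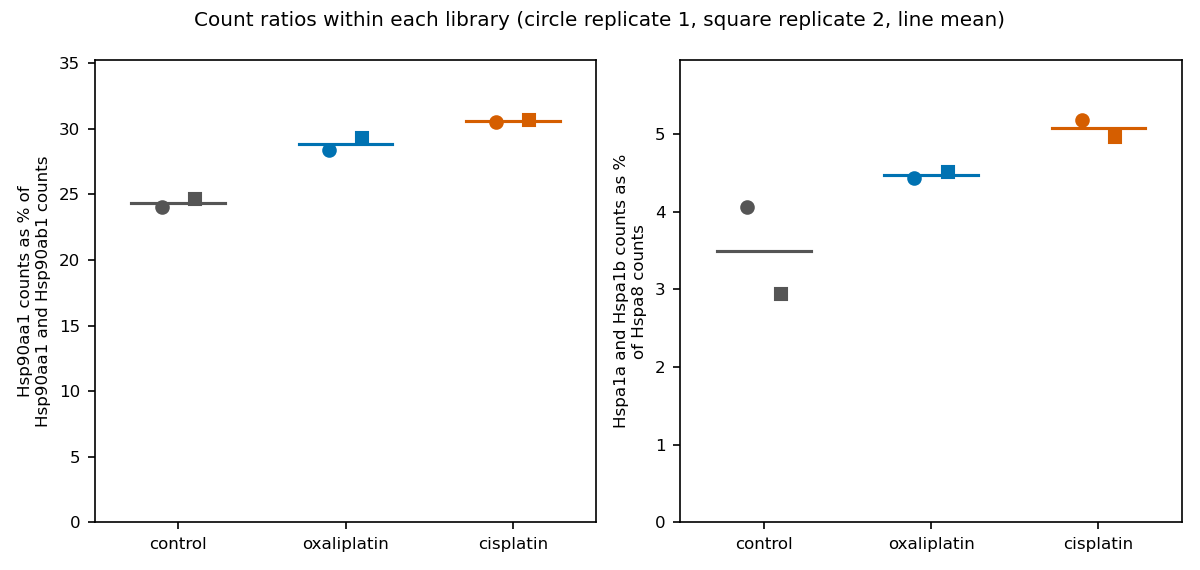
Left, Hsp90aa1 counts as a percentage of the summed Hsp90aa1 and Hsp90ab1 counts, and right, summed Hspa1a and Hspa1b counts as a percentage of Hspa8 counts, in each library of the 3 groups (vertical axes from 0, circles replicate 1, squares replicate 2, lines means). The Hsp90aa1 share was 24.0% and 24.6% in control, 28.4% and 29.3% in oxaliplatin and 30.5% and 30.7% in cisplatin libraries, and the Hsp70 percentage spread most between the control libraries.

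Dnajb1 (ENSMUSG00000005483, chr8:83608193-83612653, plus strand), the J-domain partner that loads clients on Hsp70, was called higher after Cispl, within the limits below, and not after Oxali. Its normalised counts were 1501 and 1407 in Ctrl, 1532 and 1529 in Oxali and 1711 and 1661 in Cispl libraries. The Cispl libraries were the highest, and the Oxali libraries lay just above Ctrl. After Cispl its log2 fold change equalled 0.21 ± 0.07 (DESeq2 adjusted p = 0.0168), and after Oxali 0.07 with a 95% interval of -0.07 to 0.22 (adjusted p = 0.537). The Cispl call held in 8 of 16 alternatives. Among the others, it was lost with total-count scaling (DESeq2 adjusted p = 0.0749) and without Ctrl replicate 2 (0.265), Oxali replicate 1 (0.0797) or 2 (0.0773), or Cispl replicate 1 (0.243) or 2 (0.137). The drugs themselves differed by a log2 value of -0.14, with a 95% interval of -0.29 to 0.01 (DESeq2 adjusted p = 0.166).

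Hsph1 (ENSMUSG00000029657, chr5:149614287-149636376, minus strand) encodes Hsp110, an exchange factor that resets Hsp70, and is the matched member with a full heat shock element in its window. It had 3459 and 3763 normalised counts in Ctrl, 4372 and 4193 in Oxali and 4119 and 4384 in Cispl libraries. All 4 drug libraries lay above Ctrl and the drug groups overlapped. Log2 fold changes were 0.25 ± 0.06 after Oxali (DESeq2 adjusted p = 6.48e-04) and 0.24 ± 0.06 after Cispl (adjusted p = 9.65e-04). The Oxali call was lost without Ctrl replicate 1 (DESeq2 adjusted p = 0.0558) or Oxali replicate 1 (0.0832), and the Cispl call without Ctrl replicate 1 (0.0675) or Cispl replicate 2 (0.0940). Between the drugs the log2 difference was 0.01, with a 95% interval of -0.11 to 0.13 (DESeq2 adjusted p = 0.931).

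Bag3 (ENSMUSG00000030847, chr7:128523616-128546981, plus strand) encodes a BAG-domain exchange factor that directs Hsp70 clients to autophagy. It was the 1 member to pass the test in opposite directions after the drugs. Its normalised counts were 1475 and 1377 in Ctrl, 1081 and 1089.9 in Oxali and 1653 and 1676 in Cispl libraries, without overlap. After Oxali its log2 fold change was -0.39 ± 0.08 (DESeq2 adjusted p = 1.03e-05), and that between Oxali and Cispl was -0.62 ± 0.08 (adjusted p = 2.78e-13), a level 34.8% lower. These calls held under all 16 alternatives. The rise after Cispl, 0.22 ± 0.08 (DESeq2 adjusted p = 0.0158), held in 8 of 16. Among the others, it was lost with total-count scaling (0.0673) and without Ctrl replicate 2 (0.267), Oxali replicate 1 (0.0726) or 2 (0.0707), or Cispl replicate 1 (0.163) or 2 (0.222).

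Hsp90aa1 (ENSMUSG00000021270, chr12:110690605-110702728, minus strand), the inducible cytosolic Hsp90, rose after both drugs. It had 31299 and 32103 normalised counts in Ctrl, 38714 and 40715 in Oxali and 44641 and 45869.6 in Cispl libraries. The groups followed each other without overlap, Ctrl lowest and Cispl highest. Log2 fold changes came to 0.33 ± 0.04 after Oxali (DESeq2 adjusted p = 2.96e-17) and 0.51 ± 0.04 after Cispl (adjusted p = 5.34e-43). The level after Oxali was 12.2% below that after Cispl (DESeq2 adjusted p = 3.41e-06), and all 3 calls held under the 16 alternatives. Of its 50-base stretches, 47.5% occur in other genes, mostly in Gm12346 (212 to 342 normalised counts).

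Hsp90ab1 (ENSMUSG00000023944, chr17:45567775-45573271, minus strand), the constitutive cytosolic Hsp90, was the most abundant member and the one with the smallest fold changes against Ctrl. It had 99023 and 98293 normalised counts in Ctrl, 97599.9 and 98194 in Oxali and 101724 and 103781 in Cispl libraries. The Cispl libraries were slightly above the rest. The 95% interval of the log2 fold change was -0.06 to 0.04 after Oxali (DESeq2 adjusted p = 0.817) and 0.01 to 0.11 after Cispl (adjusted p = 0.0662), so that it was measured closely. Oxali was 4.73% below Cispl (DESeq2 adjusted p = 0.0302), a call made in 5 of the 16 alternatives, with adjusted p up to 0.405. Among them it was lost without Oxali replicate 1 or 2 or Cispl replicate 1 or 2, and in edgeR. As Hsp90aa1 rose and Hsp90ab1 hardly moved, the Hsp90aa1 share of the summed counts went from 24.3% ± 0.426 (SD, n = 2) in Ctrl to 28.9% ± 0.643 in Oxali and 30.6% ± 0.107 in Cispl cells, as the plot of count ratios shows.

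Hspb1 (ENSMUSG00000004951, chr5:135887919-135889563, plus strand) encodes the small heat shock protein Hsp25, the mouse form of HSP27. It had 501 and 405 normalised counts in Ctrl, 455 and 476 in Oxali and 628 and 642 in Cispl libraries. The Oxali libraries lay between the Ctrl libraries, and the Cispl libraries lay above all others. A log2 fold change of 0.49 ± 0.14 was measured after Cispl (DESeq2 adjusted p = 0.00236), a level 40.2% higher. That call was lost without Ctrl replicate 2 (DESeq2 adjusted p = 0.151), Cispl replicate 1 (0.0641) or Cispl replicate 2 (0.0895). After Oxali it was 0.04, with a 95% interval of -0.24 to 0.31 (DESeq2 adjusted p = 0.890). Oxali was 26.7% below Cispl (DESeq2 adjusted p = 0.00705), a call that held in 10 of 16 alternatives and was lost, among others, without Oxali replicate 1 or 2 or Cispl replicate 1 or 2 (0.177, 0.0882, 0.124 and 0.148). The transcripts share 48.8% of their 50-base stretches with another gene, Hsp25-ps1, which had at most 6.23 normalised counts.

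The direct comparison of the drugs was made at the same dose and time, over 10 pairs of values, with p-values adjusted over all genes. Of the members, 1 (Hsf1) was higher after Oxali and 5 (Bag3, Hspb1, Hsp90aa1, Hspa8 and Hsp90ab1) were higher after Cispl, with a median log2 difference of -0.16 (Oxali minus Cispl) against -0.003 over all genes. Over all genes, 19.9% were called (8.62% higher after Oxali and 11.3% lower), or 10.8% and 9.12% with total-count scaling, and 68.0% did not overlap, against 8 of 10 members. edgeR called 4 members. Hsp90aa1 and Bag3 kept their call under every alternative. Leaving out Oxali replicate 1 or 2 or Cispl replicate 1 or 2 left 2 calls each time. For Hspa1a, Hspa1b, Dnajb1 and Hsph1 no difference passed the threshold. For Hspa1b the log2 difference had a 95% interval of -0.60 to 0.06 (DESeq2 adjusted p = 0.248). It passed with only the Oxali and Cispl libraries in the fit (DESeq2 adjusted p = 1.96e-04), and also without Ctrl replicate 1 or 2. For Hspa1a the interval was -0.80 to 0.21 (adjusted p = 0.449).

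**Figure D3:**
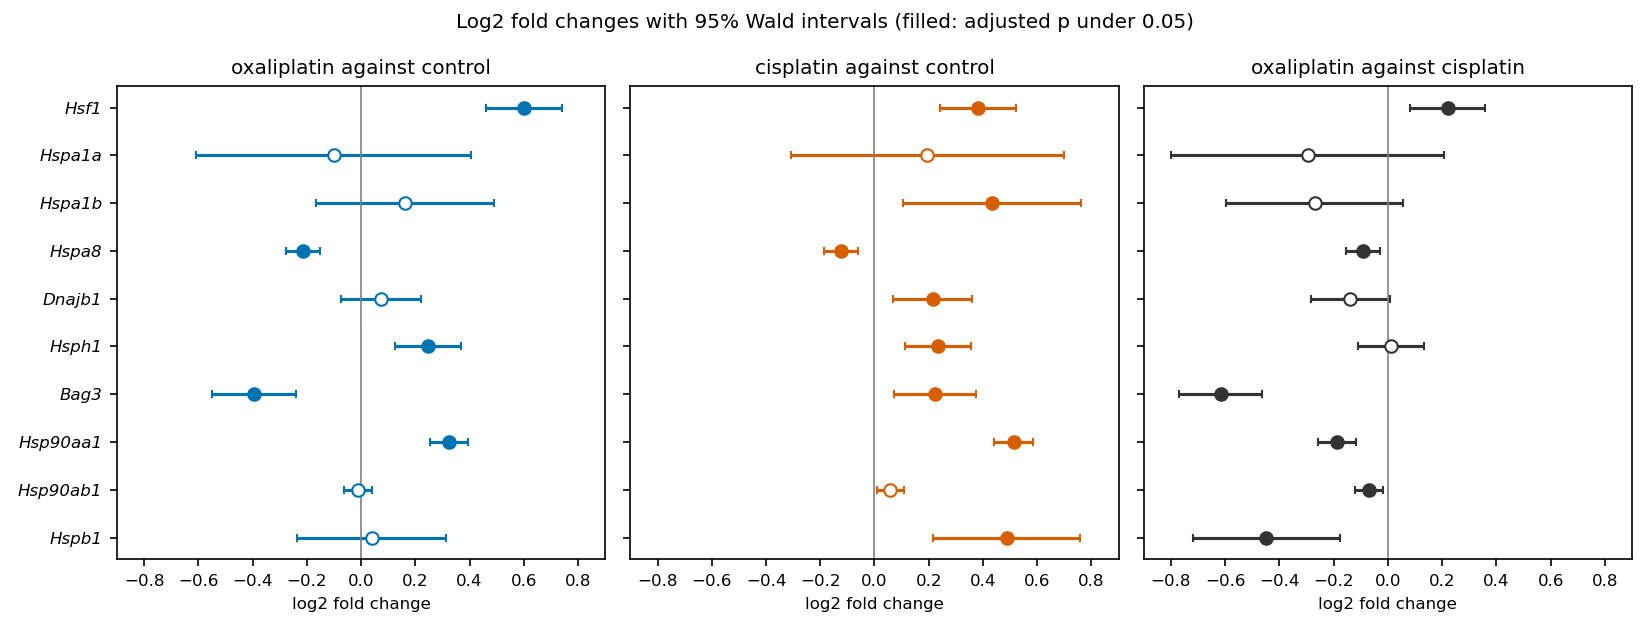
Log2 fold changes (horizontal axis) of the 10 genes for oxaliplatin against control, cisplatin against control and oxaliplatin against cisplatin, with bars for the 95% Wald interval and filled points for a DESeq2 adjusted p under 0.05. Filled points numbered 5, 8 and 6, and Hspa1a and Hspa1b had the widest intervals.

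Per kilobase of annotated exon, the members spanned a wide range of levels. Exon bases were the union over all annotated transcripts of a gene (7266 for Hsph1 and 1031 for Hspb1), not the length of the transcript expressed. The order of genes with similar values therefore depends on this choice of length. In Ctrl cells the order, as mean normalised counts per kilobase, was Hsp90ab1 (32897), Hspa8 (15432), Hsp90aa1 (8064), Hspa1b (764), Bag3 (557), Hsph1 (497), Dnajb1 (454), Hspb1 (439), Hsf1 (231) and Hspa1a (58.9). The Ctrl libraries of Hspb1 overlapped those of Dnajb1 and Hsph1, so that Hspb1 cannot be ordered among them. In Cispl cells the Hspb1 libraries (mean 616) lay above the Hsph1 libraries (585), and after Oxali Bag3 fell to 424 and stood below Hsph1 (589), Dnajb1 (478) and Hspb1 (451). The 3 abundant chaperones kept their order in each group. Together the members made up 0.935% and 0.943% of all counts in Ctrl, 0.918% and 0.938% in Oxali and 0.964% and 0.981% in Cispl libraries.

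The wider chaperone network was read from 10 lists with 91 genes, members left out, of which 87 passed the filter. After Oxali 31 genes were higher and 13 lower (50.6% called, against 20.2% of all genes). After Cispl 41 were higher and 7 lower (55.2%, against 28.1% of all genes). The lists were chosen with earlier results of these data known, and their genes were not matched to all genes by level. These shares are therefore a description and no test of the lists. The shares of all genes called, 20.2% after Oxali, 28.1% after Cispl and 19.9% between the drugs, are the scale for each list below. Median log2 fold changes were 0.07 and 0.18. The number called after Oxali was 29 without Oxali replicate 1 and 27 without Oxali replicate 2. Between the drugs, 6 genes were higher and 25 lower after Oxali (35.6%, against 19.9% of all genes). Of all genes, 8.62% were higher and 11.3% lower, or 10.8% and 9.12% with total-count scaling. With that scaling 10 network genes were higher and 22 lower. Fewer network genes were called without Oxali replicate 1, Oxali replicate 2 or Cispl replicate 1.

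The cytosolic chaperonin, a barrel that folds actin and tubulin, and prefoldin, which hands clients to it, moved in 1 direction. Of these 14 genes, 11 were higher after Oxali and 13 after Cispl, none was lower, and the median log2 fold changes were 0.24 and 0.27. The subunit gene Cct8 had 14939 and 14972 normalised counts in Ctrl, 18595 and 19570.0 in Oxali and 18289 and 18335 in Cispl libraries, with log2 fold changes of 0.35 and 0.29 (DESeq2 adjusted p = 6.80e-20 and 5.63e-14). Cct6a and Cct5 rose by 26.6% and 17.2% after Oxali and by 19.8% and 15.4% after Cispl. No gene of the list was called between the drugs by DESeq2, with 2 at an unadjusted p under 0.05, and Cct6a passed with TMM or total-count scaling and Cct8 with total-count scaling.

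Some mitochondrial chaperones also rose. Of 6 genes, 4 were higher after Oxali and 3 after Cispl, and none was called lower. The lowest log2 fold changes of the list were -0.03 after Oxali and -0.07 after Cispl. Hspd1, the mitochondrial chaperonin Hsp60, rose by 24.2% and 33.9% (DESeq2 adjusted p = 2.65e-17 and 2.41e-31), and its partner Hspe1, Hsp10, by 14.6% and 17.2%. Grpel1, the exchange factor of mitochondrial Hsp70, rose by 16.1% and 37.1%. After Oxali the call of Hspe1 was lost without Ctrl replicate 2 or Oxali replicate 2 (DESeq2 adjusted p up to 0.135), and that of Grpel1 also without Oxali replicate 1 (up to 0.170). Between the drugs 2 of the 6 were lower after Oxali, Hspd1 and Grpel1, and both calls were lost when any 1 of the 4 drug libraries was left out (DESeq2 adjusted p up to 0.265 and 0.102), that of Hspd1 also in edgeR and with total-count scaling.

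The other Hsp70 and Hsp110 genes went both ways. Of 10, 3 were higher and 3 lower after Oxali, and 4 higher and 1 lower after Cispl. Hspa9, mitochondrial Hsp70, had log2 fold changes of 0.29 and 0.33 (DESeq2 adjusted p = 2.08e-16 and 1.56e-21). Hspa5, the endoplasmic reticulum Hsp70 BiP, had 34507 and 34606 normalised counts in Ctrl, 22683 and 23888 in Oxali and 29883 and 29926 in Cispl libraries, a fall of 32.6% and 13.5% (DESeq2 adjusted p = 1.38e-58 and 2.02e-08). Of the 2 organelle Hsp90 genes, 1 was lower after each drug, and none was higher. Hsp90b1, the endoplasmic reticulum form, was 25.6% lower after Oxali and 12.3% lower after Cispl (DESeq2 adjusted p = 2.53e-25 and 1.26e-05). Trap1, the mitochondrial form, differed from Ctrl by 3.53% and -0.315%, which did not pass the test (DESeq2 adjusted p = 0.583 and 0.966).

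Among 12 other J-domain genes, 5 were higher and 2 lower after Oxali, and 7 higher and 1 lower after Cispl. Dnajc7, which links Hsp70 and Hsp90, rose by 36.1% and 38.4% (DESeq2 adjusted p = 2.35e-16 and 3.00e-18). Dnaja2 rose by 16.8% and 35.9%, and was 14.1% lower after Oxali than after Cispl (DESeq2 adjusted p = 2.91e-05). Dnaja1 rose by 16.3% after Cispl. After Oxali it was 9.59% higher (DESeq2 adjusted p = 0.0365), a call lost without Ctrl replicate 2 or any 1 of the 4 drug libraries (up to 0.419). Of the 17 Hsp90 cochaperones, 5 were higher and 1 lower after Oxali, and 7 higher and none lower after Cispl. Stip1, or Hop, which bridges Hsp70 and Hsp90, rose by 15.4% and 15.0%. St13, the Hsp70-interacting protein Hip, rose by 13.1% and 31.9%, and the first of these calls was lost without Oxali replicate 2 (DESeq2 adjusted p = 0.0823). Cacybp rose by 19.8% and 31.0%.

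Of the 6 other nucleotide exchange and BAG genes, none was higher and 1 lower after Oxali, and 2 were higher after Cispl. Between the drugs, 2 were lower after Oxali than after Cispl. These were 16.7%, 33.3% and 33.3% of the list, against 20.2%, 28.1% and 19.9% of all genes. Bag1 had log2 fold changes of 0.00 and 0.31 (DESeq2 adjusted p = 0.985 and 1.41e-05) and Bag6 of -0.14 and 0.18 (adjusted p = 0.0301 and 0.00320). The Bag6 call after Oxali was lost without Ctrl replicate 1 or any 1 of the 4 drug libraries (DESeq2 adjusted p up to 0.424), and that after Cispl without Ctrl replicate 2 or Cispl replicate 1 or 2 (up to 0.144). Both genes were lower after Oxali than after Cispl (DESeq2 adjusted p = 2.29e-05 and 2.33e-08).

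Of 8 other small heat shock genes 5 passed the filter, and 2 of these were lower after each drug. That was 40% of those tested, against 20.2% of all genes called after Oxali and 28.1% after Cispl. Hspb8, which works with BAG3 in the removal of aggregates, had 2976 and 2839 normalised counts in Ctrl, 2009 and 2046 in Oxali and 2238 and 2221 in Cispl libraries, a fall of 30.3% and 23.3% (DESeq2 adjusted p = 1.91e-15 and 7.98e-09). Hspb7 was 47.0% and 55.2% lower (DESeq2 adjusted p = 0.00132 and 2.66e-05), and the call after Oxali was lost without Ctrl replicate 2 or Oxali replicate 2 (up to 0.0853). Cryab, or αB-crystallin, had log2 fold changes of 0.01 and 0.18 that did not pass (DESeq2 adjusted p = 0.944 and 0.116). Hspb1, a member of the same family, rose after Cispl. None of the 5 was called between the drugs by DESeq2, with 1 at an unadjusted p under 0.05, and edgeR called Hspb8.

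Of 9 partners and regulators of HSF1 tested, 11.1% were called after each drug, against 20.2% of all genes after Oxali and 28.1% after Cispl. In each case 1 gene was higher and none was lower. This was Ier5, a protein that binds HSF1, with 777 and 708 normalised counts in Ctrl, 1015 and 1009 in Oxali and 1084 and 1049 in Cispl libraries (DESeq2 adjusted p = 3.93e-05 and 6.79e-07). Hsbp1, which binds the HSF1 trimer, had log2 fold changes of -0.13 and 0.06, and Ep300, an acetyltransferase of HSF1, of 0.04 and -0.15, none past the threshold (DESeq2 adjusted p = 0.172, 0.550, 0.772 and 0.143), though Ep300 was called lower after Cispl with total-count scaling (0.0403). Between the drugs Ep300 had a log2 difference of 0.19 (DESeq2 adjusted p = 0.0599), which passed in 6 of the 16 alternatives, among them edgeR, TMM and total-count scaling and the fit without Cispl replicate 2 (adjusted p from 0.0208 to 0.589 over the DESeq2 and edgeR alternatives). Hsbp1 was lower after Oxali than after Cispl (DESeq2 adjusted p = 0.0273), a call lost when any 1 of the 6 libraries was left out (up to 0.400).

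The 6 other heat-inducible genes showed the pattern of Bag3 in part: 2 were higher and 3 lower after Oxali, 4 higher and 2 lower after Cispl, and 5 were lower after Oxali than after Cispl. Sqstm1, the autophagy receptor p62, had 9091 and 8587 normalised counts in Ctrl, 7421 and 7678 in Oxali and 10692 and 10719 in Cispl libraries, a fall of 14.6% and a rise of 21.1% (DESeq2 adjusted p = 3.61e-06 and 4.51e-09). Hmox1, heme oxygenase, rose by 34.8% after Cispl (DESeq2 adjusted p = 4.25e-11). After Oxali it was 12.0% lower (adjusted p = 0.0160), a call lost when any 1 of the 6 libraries was left out (up to 0.250). Serpinh1, the collagen chaperone Hsp47, was 14.6% and 9.73% lower (DESeq2 adjusted p = 2.47e-12 and 1.21e-05), and the Col1a1 and Col1a2 levels were also lower in the 4 drug libraries. The part of the collagen genes in this was not tested.

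**Figure D4:**
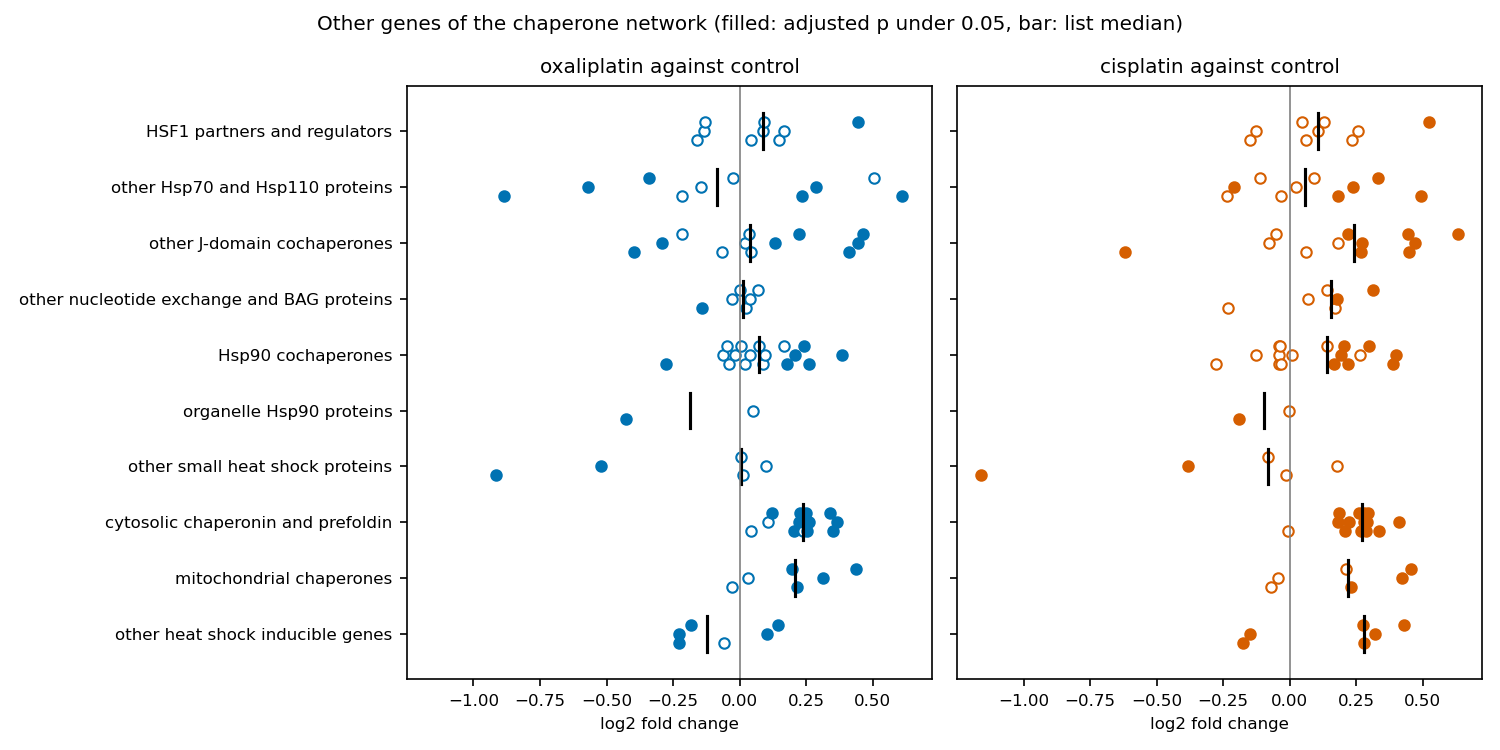
Log2 fold changes (horizontal axis) after oxaliplatin (left) and cisplatin (right) of the 87 other chaperone network genes that were tested, 1 point a gene, arranged by list, with filled points for a DESeq2 adjusted p under 0.05 and a bar at the list median. The cytosolic chaperonin and prefoldin list has its median at 0.24 and 0.27, with 11 and 13 of 14 genes called higher.

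The network genes most like each member were found by the root mean square difference of log2 normalised counts, each gene centred on its mean over the 6 libraries, among 85 genes. This difference grows with how much a gene varies, so it is read beside the member's own root mean square deviation from its mean and is not compared between members. Bag3 differed from Sqstm1 by 0.0702 (own deviation 0.256), Hsf1 from Grpel2 by 0.0906 (0.253), Hsp90aa1 from Hspd1 by 0.0440 (0.214) and Hspa8 from Serpinh1 by 0.0325 (0.0900). Dnajb1 was closest to Dnaja1 (0.0321, own deviation 0.0935) and Hsph1 to Stip1 (0.0429, own deviation 0.123). For Hspa1b it was Pfdn2 (0.0951, own deviation 0.220), for Hspb1 Bag1 (0.104, own deviation 0.241) and for Hspa1a Hsf4 (0.161, own deviation 0.238). Hsp90ab1 varied so little that its nearest gene, Fkbp4, differed from it by more (0.0385) than its own deviation (0.0320). These are descriptions over 6 libraries in 3 groups, without a test.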

How the data were processed

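Poly(A) RNA of 6 samples of TRAMP-C2 cells was sequenced with a stranded kit. The authors deposited expected counts per gene, which RSEM (version 1.3.0, with STAR version 2.5.3a and genome build GRCm38.p6, from the submitters' processing notes) estimates by dividing shared reads among genes, so that near-identical genes are uncertain. For in vitro RNA-seq, the methods of the study name a different counter. The annotation and strand setting of this table are not given in the sources used here.

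Identifiers were matched to GENCODE release M21 (54409 of 54446 genes). Rounded expected counts entered the fit for the 14956 genes that reached 10 counts in 2 or more libraries. A single DESeq2 model (version 1.42.0, run in R version 4.3.3) had group as its only factor, used the 6 libraries together and had size factors of 0.964 to 1.08. Wald tests were two-sided, with Benjamini-Hochberg adjustment over all genes tested, a threshold of 0.05 and independent filtering at 0.1. Percent changes are 2 to the power of the log2 fold change, minus 1. Standard errors accompany fold changes, and intervals are 95% Wald intervals.

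All members are named. From each of 10 network lists, the 2 genes with the highest mean and the 2 with the smallest adjusted p in any contrast were named. Members and lists were chosen with earlier results of these data known. Alternatives were the quasi-likelihood test of edgeR (version 4.0.16), TMM and total-count scaling, other filters, a replicate block, only the libraries compared, Hspa1a and Hspa1b summed, and each library left out. A crossed block was added after seeing the data. Values of some listed genes are not reported here.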

Additional observations from a re-analysis of the deposited data

How the results depend on the processing

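Each result was computed under 16 alternatives. With total-count scaling the members called after cisplatin numbered 5, with a median log2 fold change of 0.18. With each library left out in turn, the members called numbered 4 to 5 after oxaliplatin, 3 to 7 after cisplatin and 2 to 7 between the drugs. Network genes called numbered 27 to 37, 37 to 44 and 16 to 29, and member medians ran from -0.021 to 0.19, from 0.21 to 0.36 and from -0.18 to -0.12 (log2).

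The replicate numbers did not pair the libraries: the deviations of same-numbered libraries correlated across genes at 0.0715 (control with oxaliplatin), -0.0477 (control with cisplatin) and -0.191 (oxaliplatin with cisplatin). With the replicate block the calls after cisplatin of Dnajb1 and Bag3 were lost (DESeq2 adjusted p = 0.0832 and 0.0891), as were those between the drugs of Hsf1, Hspb1 and Hsp90ab1 (0.0703, 0.0537 and 0.109). This left 3 members called between the drugs, and with the crossed pairing, chosen after seeing the data, 2.

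The log2 value changed sign in 20 cases, none of them called. With total-count scaling these were -0.011 for Bag1 and -0.000170 for Cryab after oxaliplatin, and 0.010 for Dnajc7 and 0.00217 for Hspe1 between the drugs. The others came from leaving out 1 library. Over these fits the log2 value after oxaliplatin ran from -0.35 to 0.20 for Hspa1a, from -0.028 to 0.39 for Hspa1b, from -0.10 to 0.20 for Hspb1, from -0.011 to 0.10 for Ep300, from -0.059 to 0.061 for Bag1 and from -0.044 to 0.078 for Cryab. After cisplatin it ran from -0.055 to 0.49 for Hspa1a and from -0.034 to 0.024 for Trap1. Between the drugs it ran from -0.034 to 0.056 for Hsph1 and from -0.00335 to 0.012 for Stip1. The cause of these changes was not tested. With 2 libraries a group, changes of Hspa1a within its wide interval could not be detected.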
